A study of Mus musculus with 8 samples.

Results

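The renin-angiotensin genes described here are Agt, Ace, Agtr1a, Agtr2, Mas1, Enpep, Lnpep and Atp6ap2, which are 8 of the 48607 loci in the gene table of mouse aorta. Each was taken as the row that carries its gene name, and where more than 1 row did so (Agt and Lnpep) the row with the most reads over all libraries was used. All 8 were found, and none shares its row with another gene.

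The renin-angiotensin system makes peptide hormones by stepwise cleavage. Angiotensinogen, the product of Agt, is cut by renin to angiotensin I, which angiotensin-converting enzyme (Ace) turns into angiotensin II. Angiotensin II acts on the AT1 receptor (Agtr1a in most mouse tissue), which contracts vascular smooth muscle, and on the AT2 receptor (Agtr2). The receptor Mas1 binds angiotensin-(1-7), the aminopeptidases encoded by Enpep and Lnpep cut angiotensins further, and Atp6ap2 encodes the prorenin receptor, which is also a subunit accessory to the proton pump of lysosomes. In the artery wall the system is known for its part in blood pressure and atherosclerosis.

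RNA sequencing was done on whole aortas of mice that lack apolipoprotein E (ApoE-/-) and of mice that lack both apolipoprotein E and the natriuretic peptide receptor C (NPRC-/-ApoE-/-). All mice carried the ApoE deletion and ate a Western diet for 12 weeks. NPRC-/- mice were made with CRISPR/Cas9 by a frameshift in Npr3, in a C57BL/6 background, and were crossed with ApoE-/- mice. The methods describe purchased ApoE-/- mice as young males, and give no separate age or sex for the crossed littermates sequenced here. The titles give 5 ApoE-/- and 3 NPRC-/-ApoE-/- libraries. The genotype entries of the same libraries conflict with the titles for 4 of the 8: ApoE-/- 4 and 5 are entered as the double knockout, and NPRC-/-ApoE-/- 1 and 2 are entered as ApoE-/-. The groups are those of the titles, and every comparison was repeated with the groups of the genotype entries, which are also 5 against 3. The 4 libraries on which both labels agree are ApoE-/- 1, 2 and 3 and NPRC-/-ApoE-/- 3.

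The total count per library lay between 62969165 and 86693276. The targeted gene Npr3 had 0.62 to 1.69 FPKM (fragment counts divided by transcript length and by the number of fragments mapped in that library) in the ApoE-/- libraries and 1.13 to 1.39 in the NPRC-/-ApoE-/- libraries, so its level does not tell the labels apart, and a frameshift need not lower the RNA. Summed smooth muscle markers (10 genes) had 1354 to 1808 FPKM in the ApoE-/- and 1746 to 2996 in the NPRC-/-ApoE-/- libraries by title, with all 10 higher. Of these, 9 had an unadjusted p under 0.05 (edgeR), beside 6.51% of all loci tested that were higher at that p. By the criterion of fold and p used here 0 were changed, beside 3.47% of all loci tested. Summed fibroblast markers (10 genes) had 666 to 1603 and 395 to 861 FPKM, with 9 lower, where 10434 of all 20506 loci tested were lower. Summed endothelial markers (10 genes) had 102 to 114 and 98.4 to 110 FPKM. By genotype entry the groups overlapped in all 3 lists, with smooth muscle sums of 1354 to 2509 and 1404 to 2996 FPKM. No marker of these 3 lists was at 0 in any library, and their part in the results was not tested. In whole tissue, fewer cells of a type and less RNA per cell cannot be told apart.

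Levels are compared between genes in FPKM, which is per length. Ace had the highest mean over the 8 libraries, at 62.3 ± 8.80 FPKM (SD, n = 8), followed by Lnpep at 41.2 ± 4.35, Atp6ap2 at 18.6 ± 6.83 and Enpep at 3.36 ± 0.633. The ranges of these neighbours in the order did not overlap. Agtr1a (0.771 ± 0.288), Agt (0.534 ± 0.344) and Mas1 (0.461 ± 0.150) came next, and the ranges of neighbours among these 3 overlapped. By title this order differs between the groups, with Agt above Mas1 on average in the ApoE-/- libraries (0.774 against 0.430 FPKM) and below it without overlap in the NPRC-/-ApoE-/- libraries (0.133 against 0.513 FPKM). Agtr2 was lowest at 0.0513 ± 0.0304, below the range of Mas1. The plot of FPKM by library shows these levels.

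**Figure D1:**
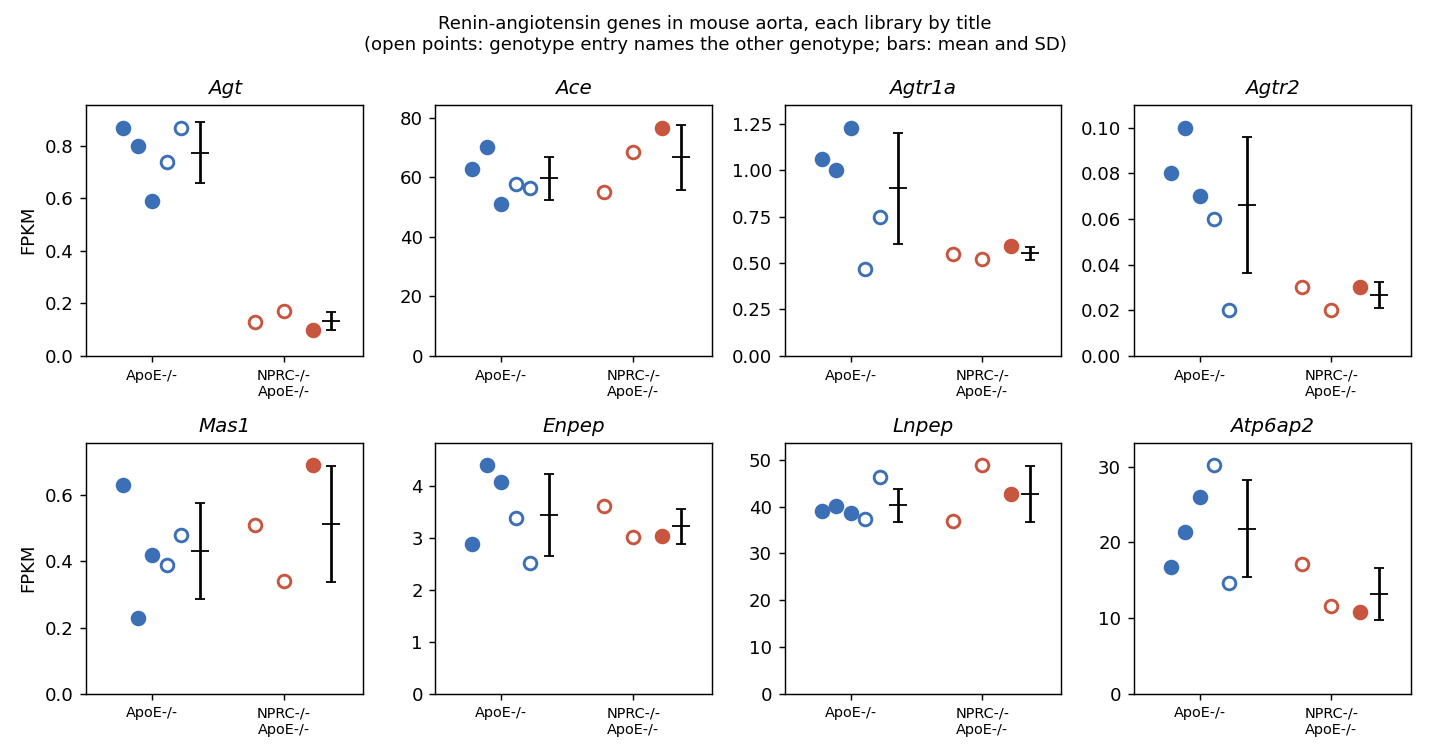
FPKM of each gene (y axis, from 0) in 5 ApoE-/- and 3 NPRC-/-ApoE-/- libraries by title, 1 point a library, with the mean and SD beside them; open points mark the 4 libraries whose genotype entry names the other genotype. Agt is the gene whose groups are apart, at 0.59 to 0.87 against 0.10 to 0.17 FPKM.

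A locus was called changed when its fold was above 2 or below 0.5 with an unadjusted p under 0.05 (edgeR quasi-likelihood test), the criterion named in the study's methods, and the Benjamini-Hochberg adjusted p is given beside it. The test took the loci that reached 1 FPKM in 3 or more libraries, which leaves out Agt, Agtr2 and Mas1. These 3 were fitted with all loci that had a count above 0. By title, 0 of the 5 members in the first fit met the criterion, beside 3.47% of all 20506 loci tested. At an unadjusted p under 0.05 alone there was 1 (Atp6ap2), beside 13.6% of all loci, and 0 had groups that did not overlap, beside 7.41% of all loci. DESeq2 called 0 of these 5, beside 3.89% of all loci, with 2 at an unadjusted p under 0.05, beside 16.7%. In the fit without the filter 1 of 8 members (Agt) met the criterion, beside 5.12% of 44689 loci, and 2 (Agt and Atp6ap2) had an unadjusted p under 0.05, beside 10.4% of loci. In that fit 1 of 8 had groups that did not overlap, beside 6.1% of loci. None of the 8 had an adjusted p under 0.05 in edgeR, where 0 of all loci did, while DESeq2 without the filter gave 1 (Agt), beside 937 loci or 2.1% of all. By genotype entry 0 of 8 met the criterion in edgeR and DESeq2, beside 1.76% and 1.34% of loci, and 0 had an unadjusted p under 0.05 with either tool, beside 2.22% and 2.06% of loci.

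Agt, which encodes the precursor of all angiotensins, had 0.87, 0.80, 0.59, 0.74 and 0.87 FPKM in ApoE-/- 1 to 5 and 0.13, 0.17 and 0.10 in NPRC-/-ApoE-/- 1 to 3. These values rest on 120 to 174 reads in the first group and 22 to 28 in the second. Every NPRC-/-ApoE-/- library by title lay below every ApoE-/- library. Agt was 5.60-fold lower by title, a log2 fold change of -2.49 ± 0.29 (SE) with an unadjusted p of 6.34e-06 and an adjusted p of 0.0846 in edgeR with Benjamini-Hochberg adjustment. The exact two-sided permutation test of its log2 CPM gave p = 0.0357, the smallest that 5 against 3 libraries allow. CPM are counts scaled to the library total over the tested loci, adjusted by the TMM factors. DESeq2 gave a log2 fold change of -2.50 and an adjusted p of 2.04e-13, and over 18 alternatives the adjusted p ran from that value to 0.295.

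Grouped by genotype entry, the Agt values mix. The log2 fold change was 0.17 ± 0.75 (unadjusted p = 0.826; edgeR, adjusted p = 1.00). ApoE-/- 4 and 5, entered as double knockout, had 0.74 and 0.87 FPKM, while NPRC-/-ApoE-/- 3, on which both labels agree, had 0.10. Among the 4 libraries whose labels agree the log2 difference was -2.65, with 1 library on one side and therefore no test.

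The Agt gene lies on chromosome 8 at 124556534 to 124569706 on the minus strand (GRCm38), while the deposited locus runs on to 124576293, which is 6587 bases beyond the annotated start. The loci of the other 7 members have the span of the annotated gene. The 250 bases before the annotated start of Agt, which the deposited locus covers, are shown because this is the gene whose groups are apart and its locus crosses its own start. The sequence is from RefSeq, GRCm38.p6, chr8:124569707-124569956, minus strand, with the TATA box in capitals.
Agt: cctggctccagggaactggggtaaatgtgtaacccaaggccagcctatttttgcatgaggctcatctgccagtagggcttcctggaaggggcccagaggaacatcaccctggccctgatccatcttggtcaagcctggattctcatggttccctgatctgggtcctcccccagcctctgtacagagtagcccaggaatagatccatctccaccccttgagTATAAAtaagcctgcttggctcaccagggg
The TATA box (letters TATAAA, searched on both strands) begins 30 bases before the start, and 12.4% of 32851 promoter windows of the same length hold these letters. The CCAAT box, the GC box (GGGCGG), the AP-1 site (TGANTCA) and the CACGTG form of the E-box were also searched on both strands. They had 0 matches in this window. They are held by 33.8%, 32.7%, 6.75% and 6.02% of windows. Promoter windows were found for 7 of the 8 members.

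A short row 124554204 to 124555009 on chromosome 8, with no strand, also carries the name Agt. It had 0.35 to 0.87 FPKM in the ApoE-/- libraries and 0.41 to 0.80 in the others, and the groups overlapped. With the counts of both rows summed, the log2 fold change of Agt by title was -1.53 (edgeR without the filter, adjusted p = 0.216).

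Agt is transcribed in liver and in fat, among other tissues. Summed white fat markers (10 genes) had 138 to 500 FPKM in the ApoE-/- and 202 to 374 in the NPRC-/-ApoE-/- libraries by title. Summed brown fat markers (8 genes) had 129 to 608 and 361 to 575 FPKM. The groups overlapped in both lists and no marker of them was at 0 in any library. Summed mast cell markers (8 genes, of which Ms4a2 was at 0 in at least 1 library) had 8.77 to 22.7 and 3.95 to 5.50 FPKM. These sums did not overlap by title, beside 3.69% of single loci tested that lay lower without overlap. All 5 of the mast cell markers tested were lower. Of these, 4 were changed, beside 2.39% of all loci tested that were changed and lower. Among the 4, Cma1, Mcpt4 and Cpa3 passed the filter only with ApoE-/- libraries. By genotype entry the mast cell sums overlapped, at 3.95 to 22.7 FPKM in the ApoE-/- and 4.95 to 15.5 in the NPRC-/-ApoE-/- libraries. The part of the fat and mast cell markers in the Agt result was not tested.

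Ace, the enzyme that makes angiotensin II, had 62.9, 70.1, 51.0, 57.9 and 56.4 FPKM in ApoE-/- 1 to 5 and 55.1, 68.4 and 76.8 in NPRC-/-ApoE-/- 1 to 3. The groups overlapped, and NPRC-/-ApoE-/- 3 was the highest library. For Ace the log2 fold change was 0.19 ± 0.16 by title (edgeR, Benjamini-Hochberg adjusted p = 0.611) and 0.09 ± 0.18 by genotype entry (adjusted p = 1.00).

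Agtr1a, the AT1 receptor, had 1.06, 1.00, 1.23, 0.47 and 0.75 FPKM in ApoE-/- 1 to 5 and 0.55, 0.52 and 0.59 in NPRC-/-ApoE-/- 1 to 3. ApoE-/- 4 was the lowest library, so the groups overlapped. ApoE-/- 1, 2 and 3 were the 3 libraries at 1 FPKM or more, through which Agtr1a entered the test. The log2 fold change was -0.67 ± 0.31 by title (unadjusted p = 0.0598, adjusted p = 0.381, edgeR) and -0.52 ± 0.35 by genotype entry (adjusted p = 1.00). By title Agtr1a had an unadjusted p under 0.05 in 4 of 19 alternatives, and was changed in 0. These were DESeq2 (unadjusted p = 0.0416) and edgeR without ApoE-/- 4 (0.0113). The others were edgeR on 6 libraries with the replicate block (0.0144) and without it (0.00448). The smallest adjusted p over the 19 was 0.262 (DESeq2). Agtr1a has a close paralogue, Agtr1b, and how reads shared by both were counted is not stated, so the split between them is uncertain. Agtr1b had 0.46 to 1.56 FPKM in the ApoE-/- libraries and 0.29 to 1.54 in the others, with a log2 fold change by title of -0.16 ± 0.54 (edgeR, adjusted p = 0.920).

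Agtr2, the AT2 receptor, rested on 8 to 28 reads in the ApoE-/- libraries and 7 to 12 in the NPRC-/-ApoE-/- libraries. Its FPKM were 0.08, 0.10, 0.07, 0.06 and 0.02 in ApoE-/- 1 to 5 and 0.03, 0.02 and 0.03 in NPRC-/-ApoE-/- 1 to 3. ApoE-/- 5 lay with the double knockouts, and the groups overlapped. The log2 fold change was -1.10 ± 0.58 by title (unadjusted p = 0.0866, adjusted p = 0.526, edgeR) and -0.63 ± 0.64 by genotype entry. Without ApoE-/- 5 it was -1.31, with an unadjusted p of 0.0327 and an adjusted p of 0.330 in edgeR. This met the criterion, as did 2 of 18 alternatives by title in all (lowest log2 fold change -1.40). None of the 18 had an adjusted p under 0.05.

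Mas1, the receptor for angiotensin-(1-7), had 0.63, 0.23, 0.42, 0.39 and 0.48 FPKM in ApoE-/- 1 to 5 and 0.51, 0.34 and 0.69 in NPRC-/-ApoE-/- 1 to 3. The lowest library was ApoE-/- 2, the highest NPRC-/-ApoE-/- 3, and the groups overlapped. Its log2 fold change was 0.29 ± 0.35 by title (edgeR, adjusted p = 0.760) and 0.32 ± 0.36 by genotype entry.

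Enpep, which encodes the aminopeptidase that makes angiotensin III from angiotensin II, had 2.87, 4.39, 4.07, 3.37 and 2.52 FPKM in ApoE-/- 1 to 5 and 3.61, 3.01 and 3.03 in NPRC-/-ApoE-/- 1 to 3. All 3 double knockout libraries by title lay within the range of the ApoE-/- libraries. Enpep had a log2 fold change of -0.09 ± 0.22 by title (edgeR, adjusted p = 0.881) and -0.24 ± 0.21 by genotype entry.

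Lnpep, an aminopeptidase that binds angiotensin IV, had 39.1, 40.1, 38.5, 37.3 and 46.3 FPKM in ApoE-/- 1 to 5 and 36.8, 48.8 and 42.6 in NPRC-/-ApoE-/- 1 to 3. The lowest and the highest library were both titled NPRC-/-ApoE-/-. Lnpep had a log2 fold change of 0.11 ± 0.15 by title (edgeR, adjusted p = 0.759) and 0.08 ± 0.16 by genotype entry. A second row named Lnpep, on the opposite strand within the gene, had 1.62 to 3.17 FPKM over all libraries.

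Atp6ap2, the prorenin receptor, had 16.8, 21.5, 26.0, 30.2 and 14.7 FPKM in ApoE-/- 1 to 5 and 17.1, 11.7 and 10.8 in NPRC-/-ApoE-/- 1 to 3. ApoE-/- 3 and 4 were highest and NPRC-/-ApoE-/- 2 and 3 lowest, and the groups overlapped because NPRC-/-ApoE-/- 1 lay above ApoE-/- 1 and 5. Its log2 fold change by title was -0.73 ± 0.29 (1.66-fold lower), with an unadjusted p of 0.0347 and an adjusted p of 0.334 in edgeR, short of the 2-fold criterion. The exact permutation test gave p = 0.107, and by genotype entry the log2 fold change was 0.03 ± 0.38.

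Summed macrophage markers (10 genes) had 956, 1459, 2109, 2226 and 713 FPKM in ApoE-/- 1 to 5 and 1130, 446 and 342 in NPRC-/-ApoE-/- 1 to 3. The 8 libraries stand in the same order by these markers as by Atp6ap2. All 10 macrophage markers were lower by title, and none was at 0 in any library. The row of Cd68 carries 8 gene names, so its value is not of Cd68 alone. Of the 10, 3 were changed, beside 2.39% of all loci tested that were changed and lower. By genotype entry the macrophage sums overlapped, at 446 to 2109 FPKM in the ApoE-/- and 342 to 2226 in the NPRC-/-ApoE-/- libraries. The part of the macrophage markers in the Atp6ap2 values was not tested.

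**Figure D2:**
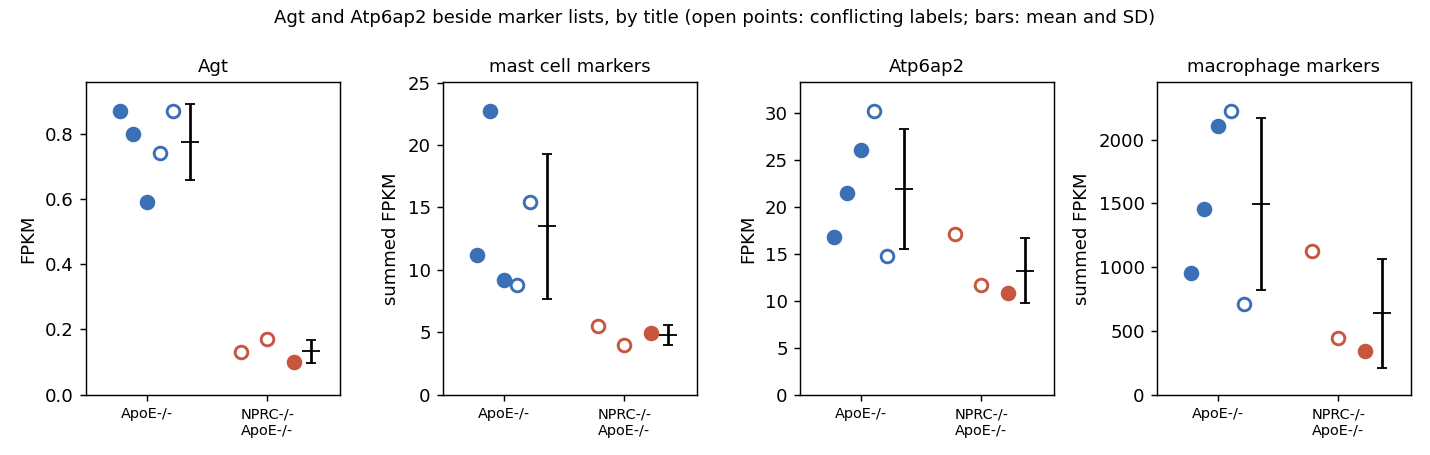
FPKM of Agt and Atp6ap2 and summed FPKM of the mast cell and macrophage marker lists (y axes, from 0) in each library by title, with the mean and SD; open points mark the 4 libraries with conflicting labels. Agt and the mast cell markers are apart by title, while Atp6ap2 (10.8 to 30.2 FPKM) and the macrophage markers overlap and order the libraries alike.

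**Figure D3:**
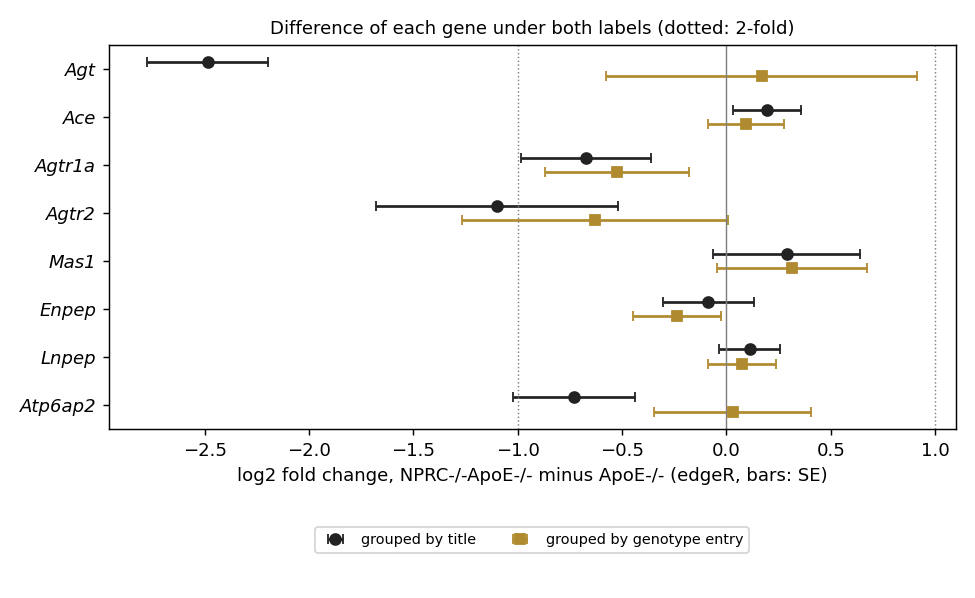
Log2 fold change (x axis, NPRC-/-ApoE-/- minus ApoE-/-, bars SE) of the 8 genes, grouped by title (circles) and by genotype entry (squares), with dotted lines at 2-fold. Agt sits at -2.49 by title and 0.17 by genotype entry, and the other 7 genes lie between -1.10 and 0.32 under both labels.

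For each member that passed the filter, the loci whose log2 CPM were most like it over the 8 libraries were taken from 18478 candidates, as a description. Atp6ap2 was most like Mocos (r = 0.998), Xylt2 (0.995) and Daglb (0.995). Ace was most like Ttf1 (r = 0.953), Por and Ece1, the last of which encodes endothelin-converting enzyme. Agtr1a was most like 6530409C15Rik (r = 0.967), Gdf10 and Adam19. Enpep was most like Cops9 (r = 0.988) and Lnpep most like Dnmbp (r = 0.959). With 8 libraries and so many candidates, values of this size are the top of a long list.

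Of 47 further genes of the pathway, 45 were found and 38 passed the filter. By title 5 of the 38 were changed, all lower, beside 2.39% of all loci tested that were changed and lower. Among these 5, Cma1, Mcpt4 and Cpa3 passed the filter only with ApoE-/- libraries, the group where they were high. At an unadjusted p under 0.05, 10 were lower and 2 higher, beside 7.13% and 6.51% of all loci. The median log2 fold change was -0.23, against -0.01 over all loci tested. None had an adjusted p under 0.05 in edgeR (smallest 0.222). DESeq2 by title, with the filter, gave adjusted p of 0.000437 (Cma1), 0.00206 (Cpa3), 0.0107 (Mcpt4), 0.0765 (Rgs2) and 0.121 (Ctsb). Without the filter DESeq2 put 2.1% of all loci at an adjusted p under 0.05. By genotype entry 0 of the 38 were changed in edgeR, beside 0.463% of all loci, with 0 at an unadjusted p under 0.05, beside 1.31%.

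Renin itself, Ren1, had 0.50, 0.77, 1.82, 0.60 and 0.04 FPKM in ApoE-/- 1 to 5 and 0.32, 0.15 and 0.46 in NPRC-/-ApoE-/- 1 to 3, so the groups overlapped (log2 fold change by title -1.28 ± 0.87, edgeR without the filter, adjusted p = 0.575). Of the 3 renin and prorenin processing genes tested, Ctsb, a lysosomal protease that can activate prorenin, met the criterion. It had 245 to 696 FPKM in the ApoE-/- and 146 to 339 in the NPRC-/-ApoE-/- libraries, with a log2 fold change of -1.10 ± 0.46 (edgeR, unadjusted p = 0.0388, adjusted p = 0.342), and the groups overlapped. The call of Ctsb held in 13 of 20 alternatives and was lost without ApoE-/- 2, 3 or 4 or NPRC-/-ApoE-/- 2 or 3 (log2 fold change -1.15 to -0.86). The call was also lost with the replicate block on 6 libraries (-1.10, edgeR, unadjusted p = 0.0818) and at a mean of at least 5 FPKM. Ctsb orders the 8 libraries as the macrophage markers do, of which all 10 were lower by title, and their part in its values was not tested.

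Of 12 other angiotensin peptidases tested, 3 were changed, all lower (2.39% of all loci), and 7 had an unadjusted p under 0.05, all lower (7.13% of all loci). The 3 were the mast cell proteases Cma1, Mcpt4 and Cpa3, and these genes are themselves 3 of the mast cell markers. Cpa3 passed the filter only through the 5 ApoE-/- libraries (1.13 to 3.29 FPKM, against 0.58 to 0.67). Cma1 and Mcpt4 also needed ApoE-/- libraries to pass it. In the NPRC-/-ApoE-/- libraries Mcpt4 had 0.61 to 1.06 FPKM, and neither gene reached 1 FPKM in all 3. Cma1, a chymase that can make angiotensin II without Ace, had 2.72, 6.65, 1.96, 2.46 and 3.96 FPKM in ApoE-/- 1 to 5 and 0.96, 0.75 and 1.03 in NPRC-/-ApoE-/- 1 to 3. Its groups did not overlap, beside 3.69% of all loci tested that lay lower without overlap, and its log2 fold change by title was -1.90 ± 0.40 (edgeR, unadjusted p = 0.00103, adjusted p = 0.222). Mcpt4, a further mast cell chymase, and the carboxypeptidase Cpa3 did not overlap either, with log2 fold changes by title of -1.80 ± 0.49 and -1.53 ± 0.34. By genotype entry the log2 fold change of Cma1 was -0.06 ± 0.70 (edgeR, adjusted p = 1.00).

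Mme (neprilysin), which makes angiotensin-(1-7), had 0.98 to 3.53 FPKM in the ApoE-/- and 2.28 to 3.35 in the NPRC-/-ApoE-/- libraries, and a log2 fold change by title of 0.41 ± 0.34 (edgeR, adjusted p = 0.609). Its groups overlapped.

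Of 13 genes that couple the AT1 receptor to the cell, 2 were lower and 2 higher at an unadjusted p under 0.05, beside 7.13% and 6.51% of all loci, and 1 was changed (3.47% of all loci): Rgs2, which turns off signalling through Gq. It had 5.34, 12.9, 11.9, 8.40 and 5.25 FPKM in ApoE-/- 1 to 5 and 5.11, 3.19 and 4.15 in NPRC-/-ApoE-/- 1 to 3. Every double knockout library by title lay below the ApoE-/- libraries in FPKM. In the TMM-adjusted CPM the groups overlapped, with 29.7 in NPRC-/-ApoE-/- 1 against 29.2 in ApoE-/- 5. The log2 fold change of Rgs2 was -1.07 ± 0.37 (edgeR, unadjusted p = 0.0170, adjusted p = 0.309). The call of Rgs2 held in 14 of 20 alternatives and was lost without ApoE-/- 2, ApoE-/- 3 or NPRC-/-ApoE-/- 2 (log2 fold change -0.91 to -0.88). The call was also lost with limma on log2(FPKM + 1) (-0.86) and log2(FPKM + 0.1) (-0.98), and at a mean of at least 5 FPKM. The other 3, named after their values were seen, were the arrestin Arrb2 (-0.97 ± 0.25), the phospholipase Plcb4 (0.69 ± 0.24) and the G protein regulator Rgs4 (0.54 ± 0.19), none of them past 2-fold. Of the 5 other receptors and binding partners and the 5 genes of the aldosterone and kinin arm tested, 0 were changed, beside 3.47% of all loci. Among the same genes 0 had an unadjusted p under 0.05 in edgeR, beside 13.6% of all loci.

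Without the filter 9 of the 45 genes met the criterion by title, beside 5.12% of loci in that fit, the 4 further ones being Ctsg, Mrgprd, Cyp11b1 and Kng1, which are named here after their values were seen. Mrgprd, a receptor of the Mas family, had 0, 7, 0, 0 and 0 reads in ApoE-/- 1 to 5 and 82, 90 and 72 in NPRC-/-ApoE-/- 1 to 3. It begins 5278 bases after the end of Mrgprf on the same strand of chromosome 7, and Mrgprf had a log2 fold change by title of 2.20 ± 0.28 (edgeR, adjusted p = 0.123). The reads of Ctsg came from ApoE-/- 3 (4 reads) and NPRC-/-ApoE-/- 1 (81 reads) and those of Cyp11b1 from ApoE-/- 1, 2 and 4 (11, 3 and 12 reads). Kng1, a kininogen, had 20 to 270 reads in the ApoE-/- and 0 to 15 in the NPRC-/-ApoE-/- libraries.

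**Figure D4:**
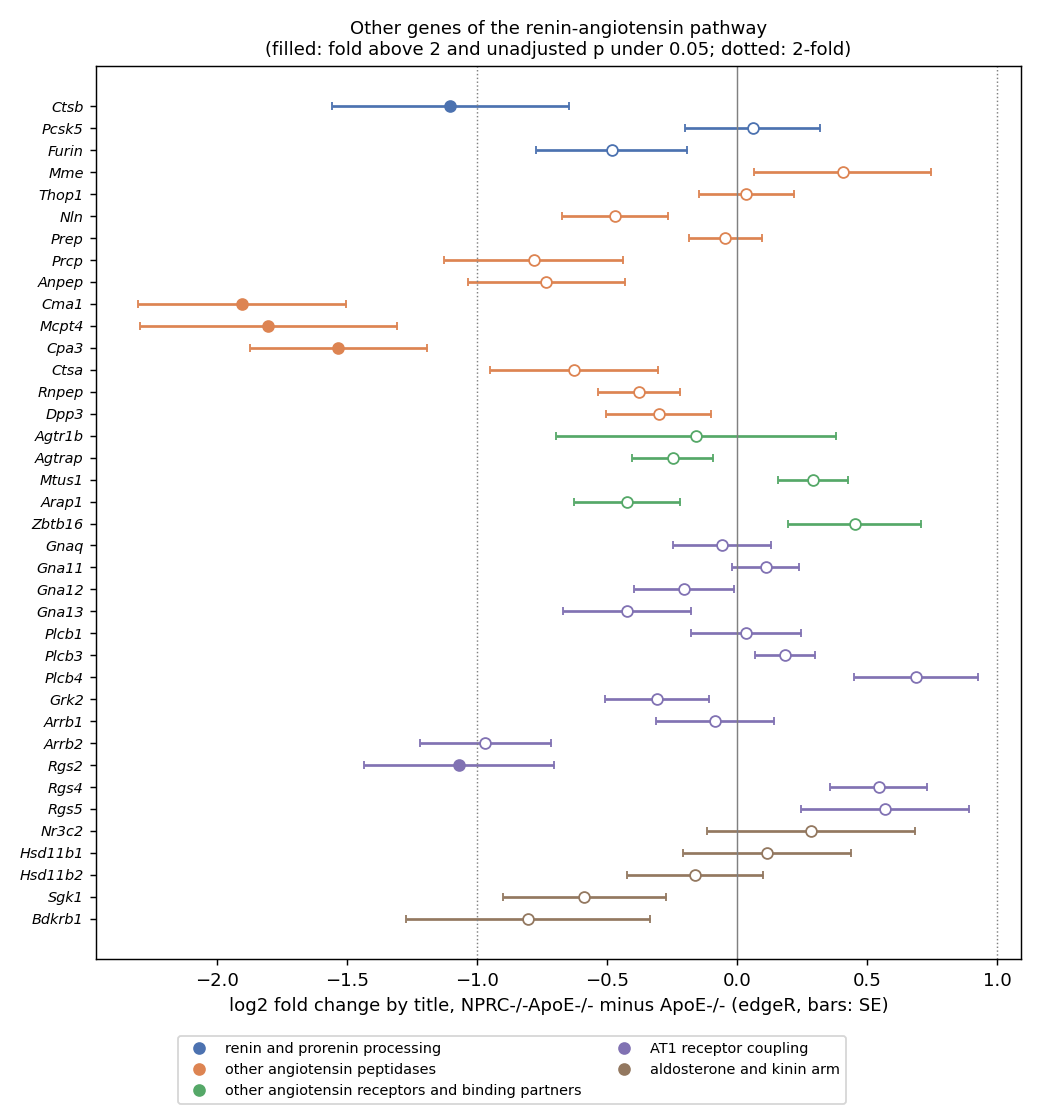
Log2 fold change by title (x axis, NPRC-/-ApoE-/- minus ApoE-/-, bars SE) of the 38 further pathway genes that passed the filter, coloured by list; filled points met the fold and unadjusted p criterion. The 5 filled points are Ctsb, Cma1, Mcpt4, Cpa3 and Rgs2, all below -1.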

How the data were processed

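Whole-aorta poly(A) RNA was sequenced as strand-marked paired-end libraries on a NovaSeq. Per the submitters' processing notes reads were checked with FastQC and trimmed with cutadapt 1.9, on GRCm38, and the authors' methods name HISAT2 and StringTie. The authors deposited a count per assembled locus as whole numbers without normalization. The authors also deposited FPKM values, scaled to length and to mapped fragments. How the counts were derived and whether strand was used is not given in the sources used here. Columns that could not be assigned to a library numbered 0.

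Counts were fitted with edgeR 4.0.16 (R 4.3.3; TMM, quasi-likelihood test) over all loci, with Benjamini-Hochberg adjustment over all of them. SE is the absolute log2 fold change divided by the square root of F. DESeq2 1.42.0, limma 3.58.1 (log2 of FPKM plus 1 or 0.1), other scalings and filters, a replicate block and leaving out each library were alternatives, and filterByExpr was added after seeing the data. The scripts were tested on simulated data. The exact permutation p (scipy 1.17.1) is two-sided, as 2 times the smaller tail over 56 arrangements, so 0.0357 is its smallest value. This definition replaced, after the values had been seen, a count of arrangements at least as far from 0, whose smallest value is lower. The biological coefficient of variation was 0.327. The authors' methods name aortas of 5 mice per genotype, while 8 libraries, 5 and 3 by title, were analysed here. No label ties a library to a mouse, so p-values measure the spread between libraries.

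Members and lists were chosen with earlier results of these data known. Named were all members, pathway genes that met the criterion by title or genotype entry, Ren1, Agtr1b, Mme and Cma1, and the most alike loci of each member that passed the filter. A further gene of this rule is not reported here. Npr3 was named as the targeted gene and Mrgprf as the neighbour of Mrgprd. Gene positions are from GENCODE on GRCm38. Some rows of markers and pathway genes carry more than 1 gene name, among them Cd68 (8 names), Egfl7 (4) and Arap1 (3).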

Additional observations from a re-analysis of the deposited data

Results flagged for a closer look

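In 52 groups of 5 libraries examined for 1 library apart from the rest (Dixon's test), 5 were found, and chance gives about 1 in 20. In the ApoE-/- libraries by title, ApoE-/- 3 was the lowest for Agt, at 0.70 log2 CPM against 0.97 for the next library, which is still above every NPRC-/-ApoE-/- library. ApoE-/- 2 was highest for Mrgprd, at -2.95 with 7 reads where the other ApoE-/- libraries had 0. ApoE-/- 3 was also lowest for summed endothelial markers by title, at 6.67 on the log2 scale of summed FPKM. By genotype entry, ApoE-/- 3 was lowest for summed brown fat markers, at 7.01, and NPRC-/-ApoE-/- 1 lowest for summed heart muscle markers, at -0.76.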

How the results depend on the processing

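By title, 0 members were changed under 17 of 20 alternatives (5 tested in each, except 3 at a mean of at least 5 FPKM). It was 1 (Agt) with no filter, with filterByExpr and with the counts of rows of the same name summed, since these let Agt be tested. Agtr2, fitted without the filter, met the criterion under 2 of its 18 alternatives. By genotype entry the count of changed genes was 0 under all 18 alternatives, among the members and further pathway genes tested in each. In the fit that combines no filter with leaving out NPRC-/-ApoE-/- 3, Mrgprd did meet the criterion (log2 fold change -8.26, edgeR, unadjusted p = 0.0499, adjusted p = 1.00). The 5 changed pathway genes by title became 3 with limma on log2(FPKM + 1) and 0 of 16 genes at a mean of at least 5 FPKM. Without the filter there were 9, beside 5.12% of loci in that fit. On leaving out single libraries the count ran from 3 to 7 (3 without ApoE-/- 2, ApoE-/- 3 or NPRC-/-ApoE-/- 2). For the other fits the share of all loci called is not given here. Their counts therefore cannot tell a shift of these genes from a shift of all loci.

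The log2 fold change of Agt by title stayed negative in all 19 alternatives. It was -0.64 with limma on log2(FPKM + 1), where the pseudocount shrinks it, and -2.65 to -2.33 on leaving out single libraries. By title the sign turned for Mas1 (-0.0016 to 0.54 on leaving out single libraries, lowest without NPRC-/-ApoE-/- 3) and Enpep (-0.20 to 0.024, highest without ApoE-/- 3). By genotype entry, signs turned for Agt (-0.18 to 0.66 on leaving out single libraries, and -2.65 in the 4 libraries whose labels agree), Ace (-0.096 to 0.22, lowest without NPRC-/-ApoE-/- 3) and Atp6ap2. Atp6ap2 had -0.082 and -0.090 with limma (pseudocounts 1 and 0.1), -0.020 with total count scaling, -0.53 to 0.29 on leaving out single libraries and -0.88 in the 4 libraries whose labels agree. The causes of these turns beyond fewer libraries were not tested.

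No pairing by the replicate numbers of the titles was seen (correlations of same-numbered libraries -0.31, -0.11 and 0.01). With so few pairs this cannot exclude a shared litter or batch. With the replicate block on 6 libraries, 0 members and 5 pathway genes were changed, against 0 and 6 in the same 6 libraries without it. The share of all loci called in either fit is not given here. With the block Agt had a log2 fold change of -2.46 (edgeR, adjusted p = 0.295). No paired fit was possible by genotype entry because its groups share only the number 3. Low read numbers limit Agtr2.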
